A study of Mus musculus with 8 samples.

Results

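The genes described here are the keratins (Krt) and the keratin-associated proteins (Krtap) of the mouse, read in wire-injured carotid arteries of mice without and with the microRNA miR-126. They are the genes on the array whose name in the scanner files is Krt followed by digits or begins with Krtap, and 131 of the 55681 noncontrol probes met this rule. Those probes stand for 104 genes, 51 keratins and 53 keratin-associated proteins, of 36492 gene or transcript names on the array. The family was selected on an earlier result of the same genotype comparison, in which Krtap1-4 was higher in miR-126-/- arteries, so the genotype differences below are a description and carry no test of the family. The groups were 4 miR-126-/-/ApoE-/- mice and 4 miR-126+/+/ApoE-/- mice, so every animal lacked apolipoprotein E. Per the labels, all were females of 6 weeks with a mixed genetic background, fed a western-type diet, and the artery was collected 14 days after the wire injury. The labels name the tissue as carotid artery, and 1 array was hybridised per sample. No probe named for miR-126 was used here, so the genotypes rest on the labels alone.

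Keratins form the intermediate filaments of epithelial cells, as pairs of a type I and a type II protein. Simple epithelia use pairs such as Krt8 with Krt18, the basal layer of stratified epithelia uses Krt5 with Krt14, and the hair follicle has its own set. Keratin-associated proteins are small proteins, rich in cysteine or in glycine and tyrosine, that fill the matrix between hair keratin filaments. An artery wall has no stratified epithelium and no hair, so textbook knowledge places most of these genes in other tissues. In these files the keratins lay on chromosome 11 (27 genes) and chromosome 15 (24 genes). The keratin-associated genes lay on chromosome 16 (23 genes), chromosome 11 (20 genes), chromosome 7 (5 genes), chromosome 10 (3 genes) and chromosome 1 (2 genes).

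The probe of Krtap1-4, 60 bases long, is shown because it gave the family its single call. A set of 3 probes of Krtap20-2 and 1 each of Krtap16-8 and Krtap4-8 show the repeated stretches that keratin-associated genes share, and those of Krt5, Krt8 and Krt14 are shown for the epithelial keratins. Capitals mark runs of at least 16 bases that also stand in a probe of another gene on this array. Sequences are those of the scanner files, positions are on mm9, and each shown sequence held a reading frame with no stop codon before its last codon.
Krtap1-4 (chr11:99444863-99444922, minus strand): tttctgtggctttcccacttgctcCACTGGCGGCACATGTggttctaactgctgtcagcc
Krtap20-2 probe 1 (chr16:89206222-89206281, plus strand): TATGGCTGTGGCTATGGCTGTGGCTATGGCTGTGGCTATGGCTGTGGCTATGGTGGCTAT
Krtap20-2 probe 2 (chr16:89206262-89206321, plus strand): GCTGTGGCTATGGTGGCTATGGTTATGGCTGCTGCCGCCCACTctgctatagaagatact
Krtap20-2 probe 3 (chr16:89206195-89206254, plus strand): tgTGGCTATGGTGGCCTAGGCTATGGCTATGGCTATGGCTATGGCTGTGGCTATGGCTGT
Krtap16-8 (chr16:89047852-89047911, minus strand): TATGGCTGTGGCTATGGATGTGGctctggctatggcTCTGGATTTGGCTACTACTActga
Krtap4-8 (chr11:99641467-99641526, minus strand): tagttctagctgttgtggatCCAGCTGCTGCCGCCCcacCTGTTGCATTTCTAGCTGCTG
Krt5 (chr15:101542056-101542115, minus strand): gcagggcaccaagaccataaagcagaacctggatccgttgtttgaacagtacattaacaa
Krt8 (chr15:101828827-101828886, minus strand): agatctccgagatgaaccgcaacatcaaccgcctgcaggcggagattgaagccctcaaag
Krt14 (chr11:100064683-100065288, minus strand, ends farther apart than the length of the probe): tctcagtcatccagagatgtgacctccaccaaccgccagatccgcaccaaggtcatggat

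Signals are log2 of the scanner's processed signal minus the 75th percentile of that signal on the same array, so 0 is the level of that percentile. All values given for single arrays are on this scale, in the order of the replicate numbers, 1 to 4. A probe was counted as detected where the scanner software marked it well above background. Across the arrays 57.5% to 60.5% of all probes were detected in miR-126-/- arteries and 55.9% to 61.5% in miR-126+/+ arteries, the array's 75th percentile lay between 619.7 and 864.6 intensity units, 0 spots were saturated, and arrays correlated at 0.971 to 0.984. On miR-126-/- replicate 4 a dim area lay in spot rows 55 to 100 and spot columns 56 to 70. It held 232 of the 239 spots that were detected on all other arrays and far lower on this one, and 1 spot of a member probe. All 8 arrays shared 1 slide and 1 scan. The miR-126-/- arrays filled row 2 of the slide and the miR-126+/+ arrays row 1, and an effect of the row and one of the genotype cannot be told apart. The 5 smooth muscle and 5 endothelial markers were detected on every array, as was the case for 5 of 5 Schwann cell markers and 6 of 6 adipocyte markers. In bulk tissue, fewer cells of a type and less RNA per cell cannot be told apart.

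Of the 131 member probes, 39 (29.8%) were detected on all 8 arrays, 31 on 1 to 7 arrays and 61 (46.6%) on no array. Over all probes on the array, 50.5% were detected on all 8 arrays and 29.6% on none. All 6 simple epithelial keratins were detected on at least 1 array, and 3 of their 6 probes on all 8. Of 27 probes for keratins of stratified epithelium, 8 were detected on all arrays and 9 on none, and of 19 probes for hair shaft keratins 5 were detected on all and 10 on none. Among the 66 keratin-associated probes, 20 were detected on all arrays and 37 on none. For 45 of the 104 genes no probe was detected on any array.

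**Figure D1:**
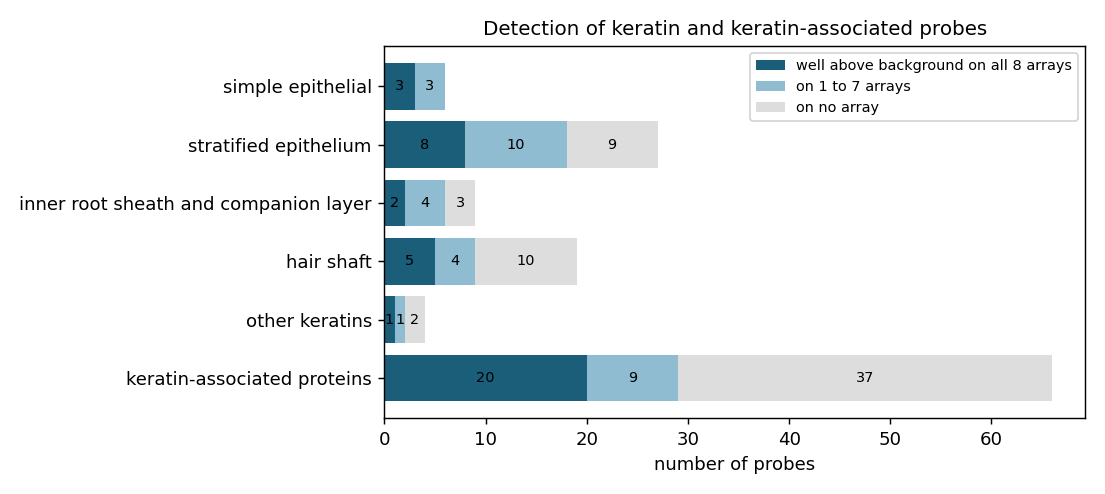
Number of probes (horizontal axis) in each class of keratin and keratin-associated genes, split by the number of arrays on which the probe was well above background. The simple epithelial keratins have no probe that was below detection on every array, whereas 37 of 66 keratin-associated probes were.

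Detected and undetected keratin-associated probes differed in sequence. The 20 probes detected on all arrays had a median of 55% G and C bases, and the 37 detected on none had a median of 38%, against 43.3% over all 55681 probes. A run of at least 16 bases shared with a probe of another gene was found in 12 of those 20 probes (60%) and in 3 of those 37 (8.11%), against 16.3% of all probes. For keratins the medians were 50% G and C in the 19 probes detected on all arrays and 45% in the 24 detected on none, and the shared runs stood in 3 of 19 and 3 of 24. Probes of related genes overlap in letters, so these shares describe the array's probes and are not independent observations.

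Probes of the same gene often disagreed on detection. Of 22 genes with more than 1 probe, 10 had a probe detected on all 8 arrays beside a probe detected on none, among them Krt2, Krt13, Krt222, Krt85, Krtap11-1, Krtap16-8, Krtap20-2 and Krtap5-5. Krtap20-2, a glycine- and tyrosine-rich protein of the hair matrix, had 4 probes. Probes 1 and 2 shown above were detected on all 8 arrays, probe 3 on 1 array and the remaining probe on none, although all 4 are assigned to the same transcript. Probes 1 and 3 overlap on the genome. Probe 1 had -1.53, -1.51, -1.44 and -1.54 on the miR-126-/- arrays, against -1.49, -1.66, -1.52 and -1.44 on the miR-126+/+ arrays, an SD of 0.07 over the 8 arrays.

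Among the simple epithelial keratins, 1 array stood apart, miR-126-/- replicate 4. Krt8, the type II partner of Krt18, had -7.30, -4.69, -5.35 and 0.40 on the miR-126-/- arrays, against -6.99, -4.90, -6.00 and -7.61 on the miR-126+/+ arrays. It was detected on 2 of 4 miR-126-/- arrays and 0 of 4 miR-126+/+ arrays. The miR-126-/- mean was 1.8-fold above a floor set by the dimmest detected probe of each miR-126+/+ array, a figure that rests on the value of replicate 4. Krt18 had 0.26, 0.91, 0.35 and 3.44 on the miR-126-/- arrays, against 1.23, 0.41, -0.15 and 0.63 on the miR-126+/+ arrays. Its difference, miR-126-/- minus miR-126+/+, was 0.71 ± 0.70 (SE, 4 arrays each) with all arrays and -0.02 ± 0.33 without miR-126-/- replicate 4. On every other array Krt18 lay between -0.15 and 1.23, and the genotypes overlapped.

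Krt7, a type II keratin of ducts and other simple epithelia, had -6.05, -3.97, -4.76 and -1.93 on the miR-126-/- arrays, against -3.78, -4.51, -3.54 and -4.50 on the miR-126+/+ arrays. The highest value was again miR-126-/- replicate 4, and the lowest was also a miR-126-/- array, replicate 1. The difference was -0.09 ± 0.78 with all arrays and -0.84 ± 0.50 without replicate 4. Krt19, a type I keratin of simple epithelia, did not follow the others: it had -1.38, -2.91, -1.53 and -2.41 on the miR-126-/- arrays, against -1.34, -0.52, -2.86 and -0.86 on the miR-126+/+ arrays, and miR-126-/- replicate 4 was among the low arrays. Its difference was -0.66 ± 0.55, with -0.37 to -1.15 when 1 array was left out, and the genotypes overlapped. Krt20, known from gut and bladder epithelium, had -4.57, -4.51, -3.29 and -3.94 on the miR-126-/- arrays, against -3.03, -3.15, -2.61 and -4.44 on the miR-126+/+ arrays, with a difference of -0.77 ± 0.44, or -0.40 with normexp background correction. Krt23 had -4.14, -7.25, -3.11 and -4.01 on the miR-126-/- arrays, against -4.52, -3.57, -3.69 and -4.54 on the miR-126+/+ arrays, with a difference of -0.55 ± 0.82, and its lowest value came from miR-126-/- replicate 2. Without that array the Krt23 difference was 0.33, and with normexp it was -0.09. In both of these genes the genotypes overlapped.

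The basal pair of stratified epithelium showed the same array at the top. Krt5 had -4.52, -4.05, -3.92 and 2.54 on the miR-126-/- arrays, against -4.53, -5.02, -3.74 and -5.06 on the miR-126+/+ arrays. Without miR-126-/- replicate 4 the remaining arrays lay between -5.06 and -3.74, and the difference was 0.43 ± 0.34, against 2.10 ± 1.49 with it. The other Krt5 probe, whose sequence is shown above, had -6.84, -5.08, -5.15 and -2.35 on the miR-126-/- arrays, against -4.79, -6.01, -3.73 and -6.55 on the miR-126+/+ arrays, so replicate 4 was highest with both probes. Krt14, the type I partner of Krt5, had -3.98, -4.25, -4.42 and -0.39 on the miR-126-/- arrays, against -4.30, -4.27, -4.18 and -4.13 on the miR-126+/+ arrays. Its difference was 0.96 ± 0.84 with all arrays and 0.01 ± 0.13 without replicate 4, since the remaining arrays of both genotypes lay between -4.42 and -3.98.

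Krt17, a type I keratin of skin appendages and of injured or proliferating epithelium, had -6.71, -5.82, -5.68 and 0.97 on the miR-126-/- arrays, against -6.76, -5.80, -5.50 and -7.02 on the miR-126+/+ arrays. It was detected on 1 array, miR-126-/- replicate 4, and is named here because of its values. Krt13, a keratin of mucosal stratified epithelium, had -4.22, -3.97, -4.30 and -2.14 on the miR-126-/- arrays, against -3.22, -4.09, -4.32 and -4.74 on the miR-126+/+ arrays, with a difference of 0.43 ± 0.53 with all arrays and -0.08 ± 0.34 without replicate 4. Krt15, another type I keratin of basal cells, had -5.79, -6.39, -4.92 and -4.57 on the miR-126-/- arrays, against -4.79, -4.32, -5.32 and -5.28 on the miR-126+/+ arrays. Its difference was -0.49 ± 0.42 with all arrays, -0.77 ± 0.39 without replicate 4 and -0.17 without miR-126-/- replicate 2, it was detected on 2 of 4 miR-126-/- arrays and 3 of 4 miR-126+/+ arrays, and the genotypes overlapped. With normexp the difference was 0.15 for Krt13 and -0.20 for Krt15.

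**Figure D2:**
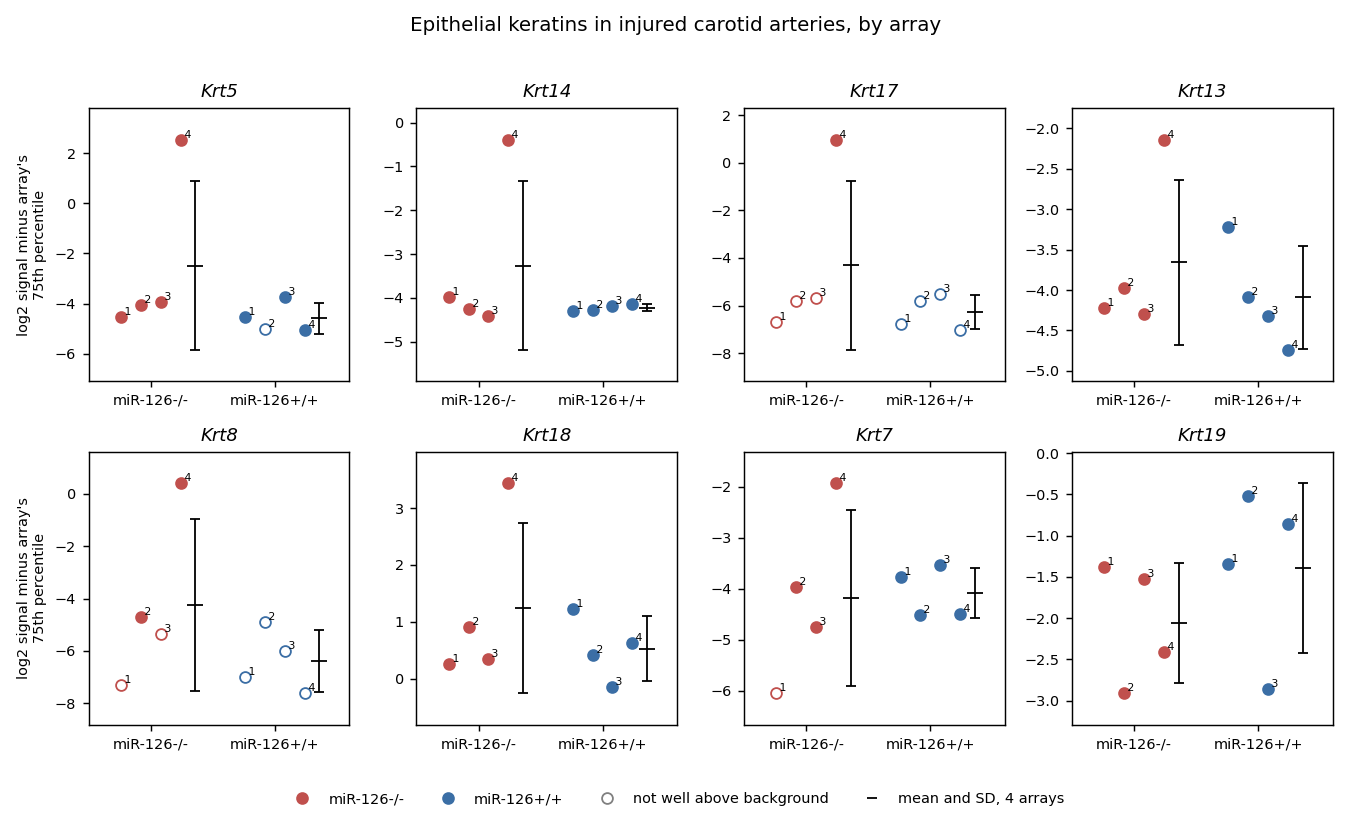
Scaled log2 signal (vertical axis, a separate scale in each panel) of 8 epithelial keratins in miR-126-/- arteries (left) and miR-126+/+ arteries (right). Points are arrays numbered by replicate, filled where well above background, with the mean and SD of 4 arrays beside them; miR-126-/- replicate 4 is the highest array for every gene shown except Krt19.

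Over all member probes detected on miR-126-/- replicate 4, 8 of 52 (15.4%) were at least 2-fold above every other array, and they belonged to Krt5, Krt7, Krt8, Krt13, Krt14, Krt17 and Krt18. The gaps to the next array ran from 1.08 for Krt13 to 6.47 for Krt17 on the log2 scale. Of all probes detected on that array, 403 of 32031 (1.26%) stood this far above the others. On the other 7 arrays the count of such member probes was between 0 and 3, and the share of all probes was between 0.409% and 1.72%.

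Of 5 markers of thymus epithelium, 4 were also highest on miR-126-/- replicate 4. Thymic epithelial cells are known to make Krt5, Krt8, Krt14 and Krt18, and the list of their markers held Foxn1, Psmb11, Ccl25, Prss16 and Ly75. Foxn1, the transcription factor that thymic epithelium requires and which is also active in hair follicles, had -7.40, -7.27, -7.02 and -4.05 on the miR-126-/- arrays, against -7.09, -6.93, -6.84 and -7.61 on the miR-126+/+ arrays, and it was detected on replicate 4 of the miR-126-/- arrays alone. Psmb11, a proteasome subunit of cortical thymic epithelium, had -5.78, -5.70, -5.45 and -3.55 on the miR-126-/- arrays, against -6.43, -5.18, -6.81 and -7.30 on the miR-126+/+ arrays, with the same single detection. Prss16, a serine protease of cortical thymic epithelium, had -5.36, -5.56, -4.29 and 1.36 on the miR-126-/- arrays, against -4.83, -6.02, -3.79 and -5.10 on the miR-126+/+ arrays. The highest Prss16 value outside miR-126-/- replicate 4 was -3.79, on miR-126+/+ replicate 3. Ccl25, a chemokine of thymus and gut, had -1.09, -1.0, -0.69 and 1.80 on the miR-126-/- arrays, against -1.02, -0.64, -0.92 and -1.88 on the miR-126+/+ arrays. Ly75 had -6.12, -6.73, -6.95 and -5.82 on the miR-126-/- arrays, against -6.34, -6.67, -3.04 and -5.88 on the miR-126+/+ arrays, with miR-126+/+ replicate 3 highest.

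Summed levels, here and below, are the log2 of the added linear signals of the markers, so the brightest markers weigh most. For the 5 markers this level was 2.63 on miR-126-/- replicate 4, where Ccl25 and Prss16 were the brightest. It was -0.91 to -0.50 on the other miR-126-/- arrays, against -1.61 to -0.43 on the miR-126+/+ arrays. Of the 5 markers, 4 were detected on miR-126-/- replicate 4, 1 or 2 on the other miR-126-/- arrays and 1 to 3 on the miR-126+/+ arrays. A list of 7 T cell genes was chosen after these values were seen: Rag1, Rag2, Dntt, Ptcra, Cd8a, Cd8b1 and Cd3e. All 7 were highest on miR-126-/- replicate 4. On that array 7 were detected, against 6 or 7 on the other miR-126-/- arrays and 5 to 7 on the miR-126+/+ arrays. Their summed log2 level was 4.23 there, at most 2.37 on the other miR-126-/- arrays and 1.10 to 2.77 on the miR-126+/+ arrays. The level of 2.77 came from miR-126+/+ replicate 3, where 7 of 7 were detected. Rag1, which cuts antigen receptor genes, had -3.69, -1.78, -1.39 and 1.21 on the miR-126-/- arrays, against -2.70, -3.54, -1.46 and -6.82 on the miR-126+/+ arrays. Whether that sample held thymus RNA, and whether such RNA had a part in the keratin values, was not tested.

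**Figure D3:**
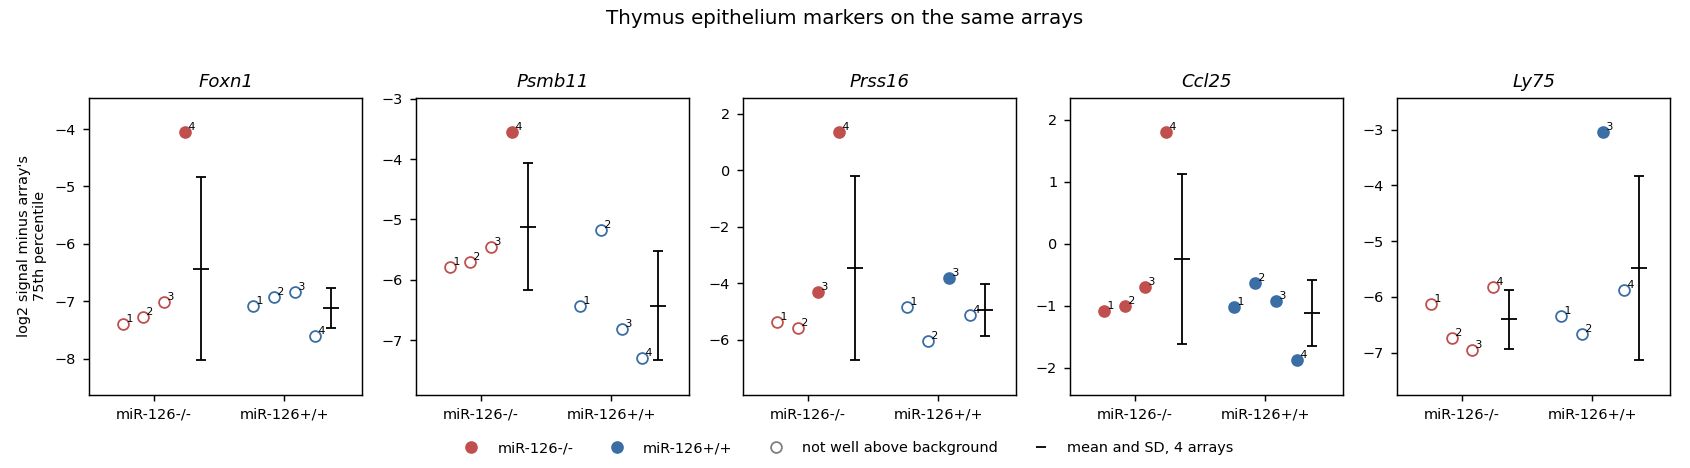
Scaled log2 signal (vertical axis, a separate scale in each panel) of the 5 thymus epithelium markers in miR-126-/- arteries (left) and miR-126+/+ arteries (right), drawn as points per array with mean and SD. Foxn1, Psmb11, Prss16 and Ccl25 are highest on miR-126-/- replicate 4, and Ly75 on miR-126+/+ replicate 3.

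Markers of other cell types were read in the same way. Of 17 simple epithelium markers, 12 were detected on miR-126-/- replicate 4, 9 or 10 on the other miR-126-/- arrays and 8 to 14 on the miR-126+/+ arrays, and 10 of the 17 were highest on that array. Their summed log2 level was 1.23 there and 0.30 to 0.35 on the other miR-126-/- arrays, against 0.09 to 0.94 on the miR-126+/+ arrays. The 10 include Prom2 and Rab25, which were not detected on that array, and Ap1m2, which lay 0.02 above the next array. Mesothelium markers summed to between -1.62 and -0.63 in miR-126-/- arteries and between -1.18 and 0.19 in miR-126+/+ arteries, with 4 of 7 detected nowhere. The value of -1.62 came from miR-126-/- replicate 4, where Msln had -7.33, against -2.15 to -0.75 on the other arrays. Thyroid, parathyroid and salivary gland markers summed to between -1.62 and -1.16 in miR-126-/- arteries and between -1.64 and 0.88 in miR-126+/+ arteries, with 6 of 13 detected nowhere. Skeletal muscle markers spread widely in both genotypes, from 1.45 to 6.12 in miR-126-/- arteries and from 0.54 to 6.08 in miR-126+/+ arteries, and the array with the high keratins was the lowest of the miR-126-/- arrays. Of 6 adipocyte markers 4 were highest on miR-126-/- replicate 4. Their summed level was 9.50 there and 8.59 to 9.11 on the other miR-126-/- arrays, against 7.65 to 8.71 on the miR-126+/+ arrays. Of 5 Schwann cell markers 4 were highest there too, with a summed level of 5.80, against 5.22 to 5.60 on the other miR-126-/- arrays and 4.92 to 5.91 on the miR-126+/+ arrays. The part of these markers in the keratin values was not tested.

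For the genotype comparison a gene entered where a probe was detected on at least 3 of 4 arrays of a genotype, and the probe with the highest mean stood for the gene. Of the 104 members 45 entered and 59 did not, of which 14 had a probe detected on at least 1 array. limma's moderated test with Benjamini-Hochberg adjustment over 23831 genes and a threshold of 0.05 called 1 member higher, Krtap1-4, and 0 lower. Over all genes 0.0546% were called higher and 0.0587% lower. At an unadjusted p under 0.05 there were 4 members, 8.89% of those that entered, against 10.2% of all genes. The median difference of the members that entered was 0.03, against 0.00 over all genes, with 25 members higher and 20 lower. In 2 members the miR-126-/- arrays all lay above the miR-126+/+ arrays and in 3 they all lay below, where the background over all genes was 3.85% and 2.56%. Since the family was proposed from this contrast, nothing is read from these counts.

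Krtap1-4, a cysteine-rich protein of the hair matrix, had -4.41, -4.35, -4.27 and -4.59 on the miR-126-/- arrays, against -6.36, -5.94, -5.69 and -5.57 on the miR-126+/+ arrays. Every miR-126-/- array was above every miR-126+/+ array. The probe was detected on 4 of 4 miR-126-/- arrays and 0 of 4 miR-126+/+ arrays. The mean was -4.41 ± 0.14 in miR-126-/- arteries, against -5.89 ± 0.35 in miR-126+/+ arteries (SD, n = 4 each), and is given as 1.59-fold above a floor. The floor replaces each miR-126+/+ value by the dimmest detected probe of that array, where that probe was brighter. Undetected probes can lie above this floor, so 1.59-fold is not a strict lower limit. The unscaled signal was 27.9 to 44.1 intensity units in miR-126-/- arteries and 8.8 to 18.2 in miR-126+/+ arteries. The fitted difference was 1.48 ± 0.18, and without miR-126-/- replicate 4 it was 1.55 ± 0.19 and no longer past the threshold. Across 20 alternative settings the difference ran from 0.26 to 1.65, and the gene was past the threshold in 5 of them. The lowest value, 0.26, came with normexp background correction. Of the 8 settings that leave out 1 array, the call held in 1, the one without miR-126+/+ replicate 4.

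The Krtap1-4 spot lies in row 2 of the 384 rows of the array. The 73 other probes within 5 rows and 5 columns of it had a median difference of -0.15, and the 21 of them that were undetected in miR-126+/+ arteries had a median of -0.31, against -0.11 over all 18676 such probes. The 16 bases in capitals in the Krtap1-4 probe also stand in a probe for a long noncoding transcript on chromosome 1. That probe was detected on 4 of 4 miR-126-/- arrays and 4 of 4 miR-126+/+ arrays, and its difference was 0.13.

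Detection differed between the genotypes in 4 further members, with at least 3 arrays of one and at most 1 of the other. Like Krtap1-4, each entered the comparison only through the genotype with more detections, so its difference is partly set by that filter. The share of all genes meeting the same rule was not counted. Krtap31-1 was detected on 4 of 4 miR-126-/- arrays and 1 of 4 miR-126+/+ arrays, with -4.39, -4.48, -4.77 and -4.38 on the miR-126-/- arrays, against -5.15, -5.49, -5.14 and -4.24 on the miR-126+/+ arrays, and the genotypes overlapped through miR-126+/+ replicate 4. Krt36, a hair shaft keratin, was detected on 3 of 4 miR-126-/- arrays and 1 of 4 miR-126+/+ arrays, with -4.75, -4.79, -3.16 and -5.05 on the miR-126-/- arrays, against -5.08, -5.41, -6.57 and -4.27 on the miR-126+/+ arrays. Its second probe was detected on 2 of 4 miR-126-/- arrays and 0 of 4 miR-126+/+ arrays. Krt28, a keratin of the inner root sheath, was detected on 3 of 4 miR-126-/- arrays and 1 of 4 miR-126+/+ arrays, with -4.68, -4.90, -4.97 and -5.43 on the miR-126-/- arrays, against -4.23, -5.70, -5.45 and -5.67 on the miR-126+/+ arrays. The differences were 0.50 ± 0.25 for Krtap31-1, 0.89 ± 0.56 for Krt36 and 0.27 ± 0.34 for Krt28. In each of these genes a miR-126+/+ array lay above at least 3 of the 4 miR-126-/- arrays. With normexp background correction these differences were 0.08, 0.18 and 0.01 in the same order. The Krt36 difference was 0.47 without miR-126-/- replicate 3 and 0.48 without miR-126+/+ replicate 3.

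Krt9, a keratin of palm and sole skin, went the other way. It was detected on 1 of 4 miR-126-/- arrays and 3 of 4 miR-126+/+ arrays, with -4.94, -5.29, -5.97 and -5.47 on the miR-126-/- arrays, against -4.07, -3.93, -4.86 and -4.88 on the miR-126+/+ arrays. Every miR-126-/- array was below every miR-126+/+ array, and the difference was -0.98 ± 0.30, or -0.34 with normexp. Krtap11-1, a cysteine-rich hair protein, was detected on all arrays and had -1.39, -2.30, -3.58 and -2.50 on the miR-126-/- arrays, against -1.31, -0.95, -0.44 and -1.30 on the miR-126+/+ arrays. The genotypes did not overlap, although the highest miR-126-/- value, -1.39, and the lowest miR-126+/+ value, -1.31, were close. The difference was -1.44 ± 0.43, and the second Krtap11-1 probe was detected on no array.

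Krt73, a keratin of the inner root sheath, had -2.03, -2.20, -2.16 and -2.47 on the miR-126-/- arrays, against -1.70, -1.82, -1.62 and -2.0 on the miR-126+/+ arrays, with no overlap and a difference of -0.43 ± 0.13. Krt80, a type II keratin of several epithelia, had -0.83, -0.88, -0.70 and -0.99 on the miR-126-/- arrays, against -1.02, -1.62, -1.16 and -1.0 on the miR-126+/+ arrays, with no overlap and a difference of 0.35 ± 0.15, or 0.21 without miR-126+/+ replicate 2. The lowest miR-126-/- value of Krt80, -0.99, and its highest miR-126+/+ value, -1.0, nearly touched.

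**Figure D4:**
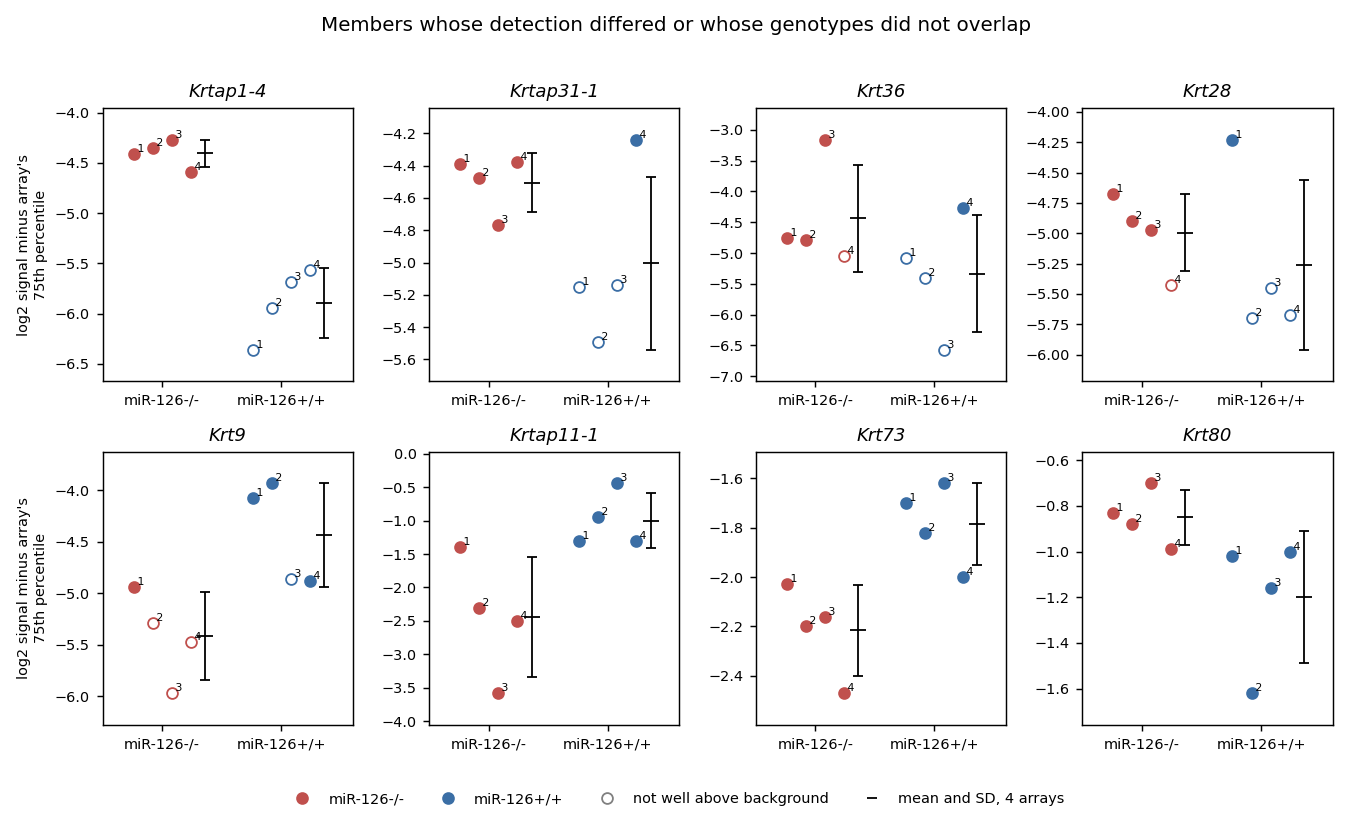
Scaled log2 signal (vertical axis, a separate scale in each panel) of members whose detection differed between the genotypes or whose genotypes did not overlap, in miR-126-/- arteries (left) and miR-126+/+ arteries (right), as points per array with mean and SD. Krtap1-4 is filled on 4 miR-126-/- arrays and open on 4 miR-126+/+ arrays.

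Several epithelial and hair keratins were detected on every array. Krt10, of the suprabasal epidermis, had -1.04, -0.79, -0.56 and -0.57 on the miR-126-/- arrays, against -0.53, -0.75, -0.56 and -0.74 on the miR-126+/+ arrays, a difference of -0.10 ± 0.13. Krt16, of injured epidermis, had -1.77, -1.67, -1.58 and -1.41 on the miR-126-/- arrays, against -1.79, -1.85, -1.54 and -1.72 on the miR-126+/+ arrays, a difference of 0.12 ± 0.11. Krt79, a type II keratin, had 0.33, 0.33, 0.59 and 0.41 on the miR-126-/- arrays, against -0.07, 0.48, -0.39 and 0.60 on the miR-126+/+ arrays, a difference of 0.26 ± 0.22. In these 3 genes the genotypes overlapped.

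Among the hair shaft keratins, Krt31 had -2.31, -2.30, -2.24 and -2.52 on the miR-126-/- arrays, against -2.26, -2.48, -2.21 and -2.18 on the miR-126+/+ arrays, a difference of -0.06 ± 0.10. Krt85 had 2.27, 2.45, 2.21 and 2.41 on the miR-126-/- arrays, against 2.59, 1.43, 2.41 and 2.28 on the miR-126+/+ arrays, a difference of 0.15 ± 0.24. The Krt85 probe used has no position in the files and shares runs of at least 16 bases with probes of 2 other genes. Of the gene's other probes 1 was detected on all arrays and 1 on none. The detected one, without a shared run, had means of -1.67 in miR-126-/- and -1.70 in miR-126+/+ arteries. With the probe used the means were 2.33 and 2.18. Krt222, which is outside the hair shaft set, had 3.18, 3.42, 3.32 and 3.45 on the miR-126-/- arrays, against 3.25, 3.04, 3.15 and 2.34 on the miR-126+/+ arrays, a difference of 0.40 ± 0.20 that was 0.20 without miR-126+/+ replicate 4, its lowest array. The Krt222 probe used holds a CA repeat and shares runs of at least 16 bases with probes of 35 other genes. The other Krt222 probe, without a shared run, was detected on no array. In Krt31, Krt85 and Krt222 too the genotypes overlapped.

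The 20 probes of keratin-associated genes detected on every array had SDs of 0.07 to 1.01 over the 8 arrays, with a median of 0.22, against a median of 0.35 for the 19 such keratin probes. The highest was that of Krtap11-1. Krtap4-8, a cysteine-rich member, had 0.58, 0.51, 0.65 and 0.53 on the miR-126-/- arrays, against 0.53, 0.55, 0.69 and 0.67 on the miR-126+/+ arrays, an SD of 0.07 over all arrays. Krtap16-4 had 1.29, 1.58, 1.28 and 1.5 on the miR-126-/- arrays, against 1.51, 1.54, 1.93 and 1.18 on the miR-126+/+ arrays, a difference of -0.13 ± 0.16. Krtap10-10 had -0.13, 0.01, -0.07 and -0.15 on the miR-126-/- arrays, against 0.13, 0.02, -0.07 and -1.64 on the miR-126+/+ arrays, a difference of 0.30 ± 0.37 that was -0.11 without miR-126+/+ replicate 4, its lowest array.

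In the glycine- and tyrosine-rich group, Krtap8-2 had -1.01, -1.0, -0.93 and -0.91 on the miR-126-/- arrays, against -0.79, -0.98, -0.39 and -1.03 on the miR-126+/+ arrays, a difference of -0.17 ± 0.14. Krtap16-8 had -2.43, -2.06, -2.20 and -2.32 on the miR-126-/- arrays, against -2.44, -2.76, -2.38 and -2.23 on the miR-126+/+ arrays with the probe shown above, a difference of 0.20 ± 0.14. Probe 2 of Krtap20-2 had -1.05, -1.14, -1.08 and -1.65 on the miR-126-/- arrays, against -1.98, -1.38, -1.21 and -2.13 on the miR-126+/+ arrays, a difference of 0.44 ± 0.24, and the difference with probe 1 was 0.02. With normexp probe 1 was the brighter and stood for the gene, and its difference was 0.02. The genotypes overlapped in each of them.

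The cysteine-rich Krtap5 genes lie on chromosome 7. Krtap5-1 had -3.08, -2.37, -2.33 and -3.44 on the miR-126-/- arrays, against -1.89, -2.41, -2.88 and -2.62 on the miR-126+/+ arrays, a difference of -0.36 ± 0.31 that was -0.14 without miR-126-/- replicate 4. Krtap5-2 had -2.19, -2.01, -2.11 and -2.07 on the miR-126-/- arrays, against -2.11, -2.21, -2.27 and -1.90 on the miR-126+/+ arrays, a difference of 0.03 ± 0.10. Krtap5-3 had -0.92, -1.12, -1.18 and -1.11 on the miR-126-/- arrays, against -0.83, -1.54, -0.93 and -1.04 on the miR-126+/+ arrays, a difference of 0.01 ± 0.16. No miR-126-/- array lay outside the range of the miR-126+/+ arrays for Krtap5-2, and the overlap was wide in the others.

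Krtap5-5 had -1.39, -1.14, -1.16 and -0.87 on the miR-126-/- arrays, against -2.38, -1.59, -1.33 and -1.25 on the miR-126+/+ arrays with the probe used. Its difference was 0.50 ± 0.25, or 0.25 without miR-126+/+ replicate 1, while another probe detected on all arrays differed by -0.22, so the sign depended on the probe. The same held for Krt10, whose second probe differed by 0.04. Krtap4-1 had -4.57, -4.91, -5.11 and -4.20 on the miR-126-/- arrays, against -4.21, -4.55, -4.29 and -4.14 on the miR-126+/+ arrays, a difference of -0.40 ± 0.20, or -0.16 with normexp. The 11 members that entered and are not given singly had differences from -0.29 to 0.16.

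**Figure D5:**
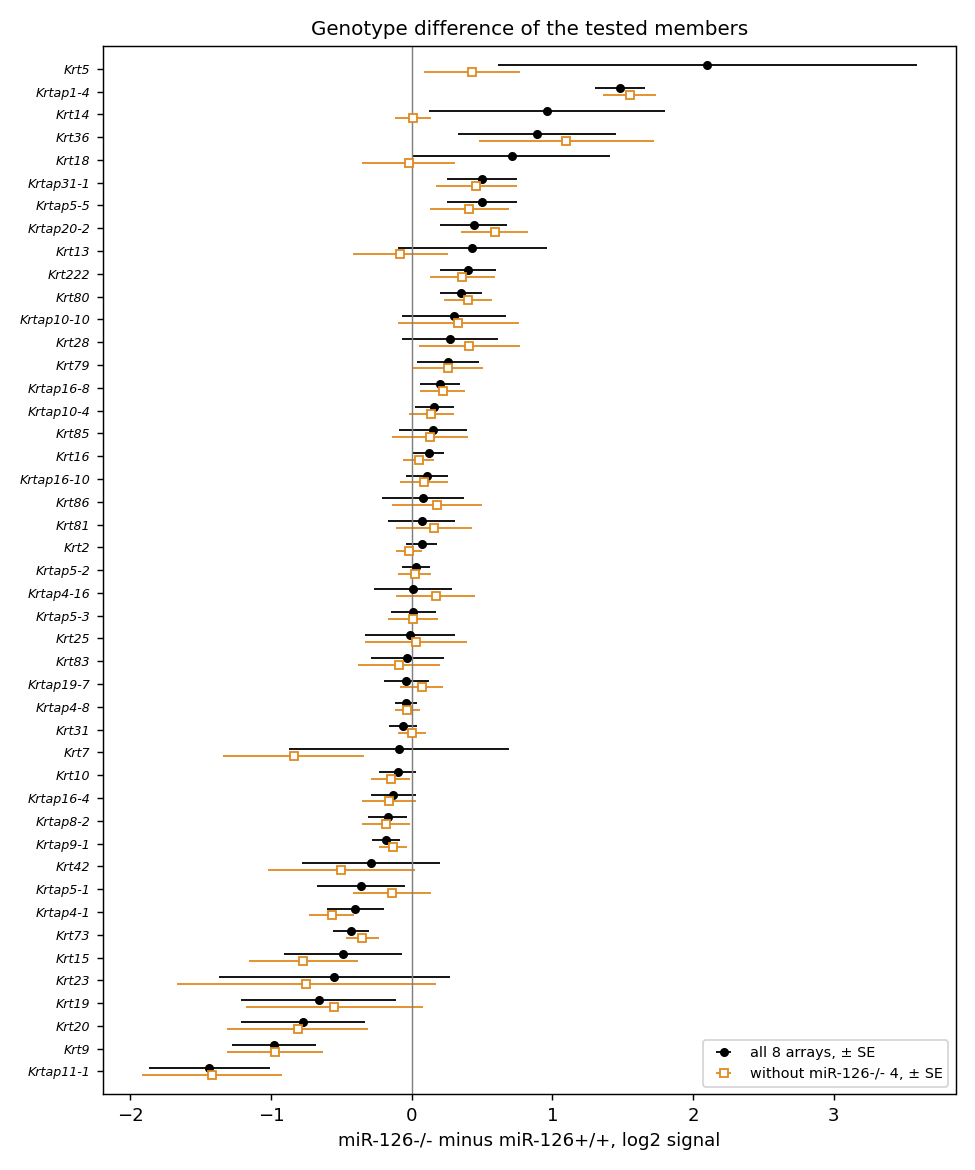
Fitted difference, miR-126-/- minus miR-126+/+, in log2 signal (horizontal axis) for each of the 45 members that entered the comparison, with all 8 arrays and without miR-126-/- replicate 4; bars are standard errors. Krt5, Krt14 and Krt18 move toward 0 when that array is left out, while Krtap1-4 changes to 1.55.

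Genes that work beside keratins were read in the same comparison. Of 47 genes of the cornified envelope and late epidermis, 46 were on the array, 18 were detected nowhere and 19 entered, of which 1 was called higher and 0 lower. Their median difference was -0.12. Over all genes 0.0546% were called higher and 0.0587% lower. The list was chosen with earlier results of these data known, so nothing is read from its count. The gene called was Casp14, a caspase of keratinocyte terminal differentiation, with -3.96, -3.36, -3.88 and -3.74 on the miR-126-/- arrays, against -5.85, -6.62, -6.24 and -6.69 on the miR-126+/+ arrays. It was detected on 4 of 4 miR-126-/- arrays and 0 of 4 miR-126+/+ arrays, and the genotypes did not overlap. Like Krtap1-4, Casp14 entered the comparison only through the genotype with more detections, so its difference is partly set by that filter. Its miR-126-/- mean was 2.55-fold above the floor defined for Krtap1-4. Its call was lost with normexp, with the replicate number as a block, and without miR-126-/- replicate 1, 2 or 3 or miR-126+/+ replicate 2. Of the next 3 by unadjusted p, Calml3 differed by 1.26 ± 0.34, Cdsn, a protein of corneodesmosomes, by 1.25 ± 0.42 and Tgm1, the transglutaminase that crosslinks the envelope, by -0.99 ± 0.38, and none of these passed the threshold. The 6 adipocyte markers all had higher means in miR-126-/- arteries, with a median difference of 1.28, 6 at an unadjusted p under 0.05 and 0 past the adjusted threshold. Their part in the values of Krtap1-4 and Casp14 was not tested.

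Of 27 genes of keratinocyte adhesion and the basal layer, 18 entered and 0 were called, with a median difference of 0.11 and, without miR-126-/- replicate 4, of -0.04. Pkp1, a desmosomal plaque protein, had -1.52, -2.95, -2.16 and 0.27 on the miR-126-/- arrays, against -3.37, -4.02, -3.25 and -2.90 on the miR-126+/+ arrays, a difference of 1.80 ± 0.63 that did not pass and was 1.18 without miR-126-/- replicate 4. The next 3 were Itga6 (0.37 ± 0.18), Dsg2 (-0.78 ± 0.47, or -1.23 without miR-126-/- replicate 4) and Lama3 (0.25 ± 0.16). Of the 27 genes 11 were highest on miR-126-/- replicate 4, among them Lamb3, a laminin chain of epithelial basement membrane, with -2.0 there and at most -3.68 on the other arrays. The 11 include Col17a1, detected on no array, and Dsg2, which lay 0.05 above the next array.

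Of 18 hair follicle genes, 12 entered and 0 were called, with a median difference of -0.20. Msx2, a homeobox factor of the hair matrix, had -3.04, -2.92, -3.50 and -3.32 on the miR-126-/- arrays, against -2.69, -2.55, -2.43 and -2.78 on the miR-126+/+ arrays, a difference of -0.58 ± 0.15 without overlap that did not pass. Crnn differed by -0.80 ± 0.27, Lgr5 by -0.74 ± 0.35 and Crym by -0.66 ± 0.39. Hoxc13, a regulator of hair keratin genes, was detected on 0 of 8 arrays. All 18 other intermediate filament and linker genes entered and 0 were called, with a median difference of -0.04. Vim, the intermediate filament of mesenchymal cells, had 6.21, 7.22, 7.06 and 7.13 on the miR-126-/- arrays, against 7.41, 6.94, 7.31 and 6.83 on the miR-126+/+ arrays, a difference of -0.22 ± 0.25. The 4 of smallest unadjusted p were Eppk1 (0.61 ± 0.27, or 0.34 without miR-126-/- replicate 4, its highest array), Bfsp2 (0.43 ± 0.23), Plec (-0.15 ± 0.08) and Gfap (-1.07 ± 0.67).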

How the data were processed

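Expression was read on single-colour Agilent mouse arrays, 4 for miR-126-/- and 4 for miR-126+/+ arteries, from 100 ng of total RNA per the labels' protocols. The deposited scanner files were made with Agilent Feature Extraction 10.7.3.1, per the file headers, and hold processed signals: linear intensity, background already subtracted. The value table deposited by the authors carries this intensity too (median log2 difference 0 on each array). Control spots were left out, and outlier spots were left out of a probe's average where the probe had another spot. A probe whose spots were all outliers, such as one with a single spot, kept them. Outlier spots numbered 146 to 216 of 59305 per array, with 216 on miR-126-/- replicate 4. The log2 signals were scaled to each array's 75th percentile over all noncontrol spots. The filter, choice of probe and fit (lmFit and eBayes of limma 3.58.1, R 4.3.3, with 6 residual degrees of freedom) are given with the results; the fit was tested on simulated data. Nonmember genes took RefSeq symbols (GRCm38.p6, names only) for 26413 probes where the accession matched; members kept the file's name, which differs from the RefSeq symbol for 11 of 122 matched member probes. Build mm9 is named in the file headers. Tables and figures were made in Python 3.11.15 (numpy 2.4.6, pandas 2.3.3, matplotlib 3.10.9).

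The members and gene lists were chosen with earlier results of these data known. Named members are those detected on all 8 arrays (the 20 of highest mean signal), those detected on at least 3 arrays of one genotype and at most 1 of the other, the 8 others of largest difference, those whose probes differ in sign, and Krtap1-4, Krt7, Krt8, Krt18 and Krt19. The 20 alternatives changed background correction (normexp, offset 50), normalization, the deposited table, the filter, the choice of probe, array weights, an intensity trend, a replicate block, a dim area on miR-126-/- replicate 4, or left out 1 array. p-values measure the spread between these arrays only. The number of arrays limits the precision.

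Replicate numbers occur in both genotypes, but correlations of same-numbered arrays' deviations from their genotype means were 0.20, -0.28, -0.04 and 0.01, so the numbers were not taken to pair the samples.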

Additional observations from a re-analysis of the deposited data

Results flagged for a closer look

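Within a genotype, 7 values of the named members lay far from the other 3 arrays of the same genotype, out of 70 sets of 4 arrays examined. Chance alone sets about 1 in 20 such sets apart where genes are not chosen by their values. Krt5, Krt13, Krt14, Krt28 and Krt36 were named because of these same values, so that rate does not apply here and nothing is read from the count. On miR-126-/- replicate 4, Krt5 was at 2.54 with the next array at -3.92, Krt14 at -0.39 with the next at -3.98, and Krt13 at -2.14 with the next at -3.97. On the same array the Krtap20-2 probe was lowest, at -1.65 with the next at -1.14. Krt36 was highest on miR-126-/- replicate 3, at -3.16 with the next at -4.75. Krt28 was highest on miR-126+/+ replicate 1, at -4.23 with the next at -5.45. Krtap10-10 was lowest on miR-126+/+ replicate 4, at -1.64 with the next at -0.07.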

How the results depend on the processing

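Krtap1-4 was the 1 member called. It was called under 5 of 20 alternatives: the 75th percentile over detected probes (25 of all genes called), the filter on all 4 arrays of a genotype (22), array weights (71), without the dim area (30) and without miR-126+/+ replicate 4 (51). The count of members was 0 with normexp (23 over all genes), quantile normalization (13), the deposited table (12), no filter (11), each probe taken singly (13), a gene's probes averaged (10) and an intensity trend (18), against 27 in the main comparison. Under normexp the Krtap1-4 difference was 0.26, and the list count, 1 through Casp14, was 0. Its offset of 50 intensity units was added to background-corrected mean spot signals. The processed signals of Krtap1-4, at most 44.1 units, are a different measure and took no offset. The part of the offset in the smaller difference was not tested. With the replicate block, although the array deviations do not pair by number, 0 members, 0 list genes and 0 of all genes were called. Leaving out 1 array gave 0 to 1 members, 0 to 1 list genes and 0 to 51 of all genes; without miR-126-/- replicate 4 these were 0, 1 and 18. Calls were made by limma, with 2428 genes at an unadjusted p under 0.05 in the main comparison and 2178 with the replicate block. Of 676 recomputed differences of 34 named members 658 moved by less than 1 SD or kept their call, and 15 changed sign, in 8 genes whose main difference was at most 0.71. Detection above the 95th percentile of negative control spots gave 55 probes on all 8 arrays, against 39. Most member probes lay near or below background, which limits what these arrays can resolve.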
